A study of Homo sapiens with 2 samples.

Results

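Segmentally duplicated gene families are sets of genes that were copied as long blocks of chromosome late in primate evolution. Many of their transcripts still share most of their sequence with other genes. The 104 members described here are the rows of the expression table whose symbols match the naming pattern of 1 of 11 such families, a family name followed by a copy number or letter, out of 39720 rows in all. Some pseudogene and read-through rows with like names fall outside the patterns. The families were proposed with the ratios of these data already in view, so the values below describe the members and test nothing. The symbol patterns took 15 NBPF, 7 RGPD, 32 GOLGA6 and GOLGA8, 4 FAM72, 3 ANKRD36, 4 CCDC144, 17 NPIP, 12 TBC1D3, 1 NOTCH2NL, 2 SMN and 7 PMS2P genes. Human genomes differ in how many copies of many of these genes they carry.

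Some of the copies became working genes and some became pseudogenes. NBPF genes are rich in Olduvai repeats, NOTCH2NL genes act on Notch signalling in the human fetal cortex, and SMN1 and SMN2 make a protein that loads Sm proteins onto spliceosomal RNAs. Short reads from one copy often match another copy equally well, so the programs that count reads must divide such reads by a model.

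RNA was sequenced from A549 cells, a human lung adenocarcinoma line. One library came from cells infected with shDEPDC1B lentivirus, a short hairpin RNA against DEPDC1B, which encodes a DEP domain protein linked to cell division. The other came from cells infected with shNC lentivirus, the negative control. Both infections used 5 µg/mL polybrene, and both cultures were harvested after 48 hours. Each group was 1 library, so the spread between cultures is unknown and every interval below covers counting error alone. The 2 libraries held 18862371 estimated counts in shDEPDC1B and 18647290 in shNC. DEPDC1B had 39 counts in shDEPDC1B and 329 in shNC, which is 7.98-fold lower (log2 ratio -2.997, 95% interval -3.515 to -2.515). Of 12 lung epithelial markers 8 were assessed, among them KRT8 with 103507 counts in shDEPDC1B and 106007 in shNC, and EPCAM with 65 in shDEPDC1B and 37 in shNC. The other 4 had at most 10 counts. The lung surfactant gene SFTPC had 0 counts in shDEPDC1B and 1 in shNC, and NKX2-1, a lung lineage factor, had 2 in shDEPDC1B and 0 in shNC. Markers of leukocytes, endothelium and fibroblasts summed to 177, 10 and 113 counts in shDEPDC1B and 107, 13 and 112 in shNC, most of them from CD14 (175 in shDEPDC1B and 107 in shNC) and COL1A1 (105 in shDEPDC1B and 99 in shNC). The T cell marker CD3E was at 0 in both libraries.

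Ratios are scaled counts in shDEPDC1B over those in shNC on the log2 scale. A gene was assessed when its higher library held 30 counts or more, and counted as higher or lower when it differed at least 2-fold with an interval that left out equality. Of the 104 members, 64 were assessed. Of the other 40, 16 had no count in either library and 24 had at most 24 counts. In 53 members both libraries passed the count minimum, in 10 only shNC did, and in 1, FAM72C, only shDEPDC1B did. The last 11 passed through their higher library alone, so a difference was built into their passing.

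All members together had 15256 counts in shDEPDC1B and 23443 in shNC, a log2 ratio of -0.54 (95% interval -0.57 to -0.51). Of the 64 assessed members 18 were lower and 6 were higher. Over all 13850 assessed genes, 8.97% were lower and 5.86% were higher. Among the 53 members that passed in both libraries 10 were lower and 5 were higher. The share over all genes that passed in both libraries was not taken. The 8.97% and 5.86% are therefore no background for these 53. The members' interval left out equality in 73.4%, against 73.8% of all assessed genes, so by this measure they were at the background. The median log2 ratio of the assessed members was -0.41, with members at 0 counts set to a floor of 3 counts, against 0.04 over all assessed genes. Their standard deviation was 1.48, against 0.79 over all assessed genes. The members were chosen from this same contrast, and nothing is read from these counts. Fewer cells with a transcript and less transcript per cell cannot be told apart in such libraries.

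**Figure D1:**
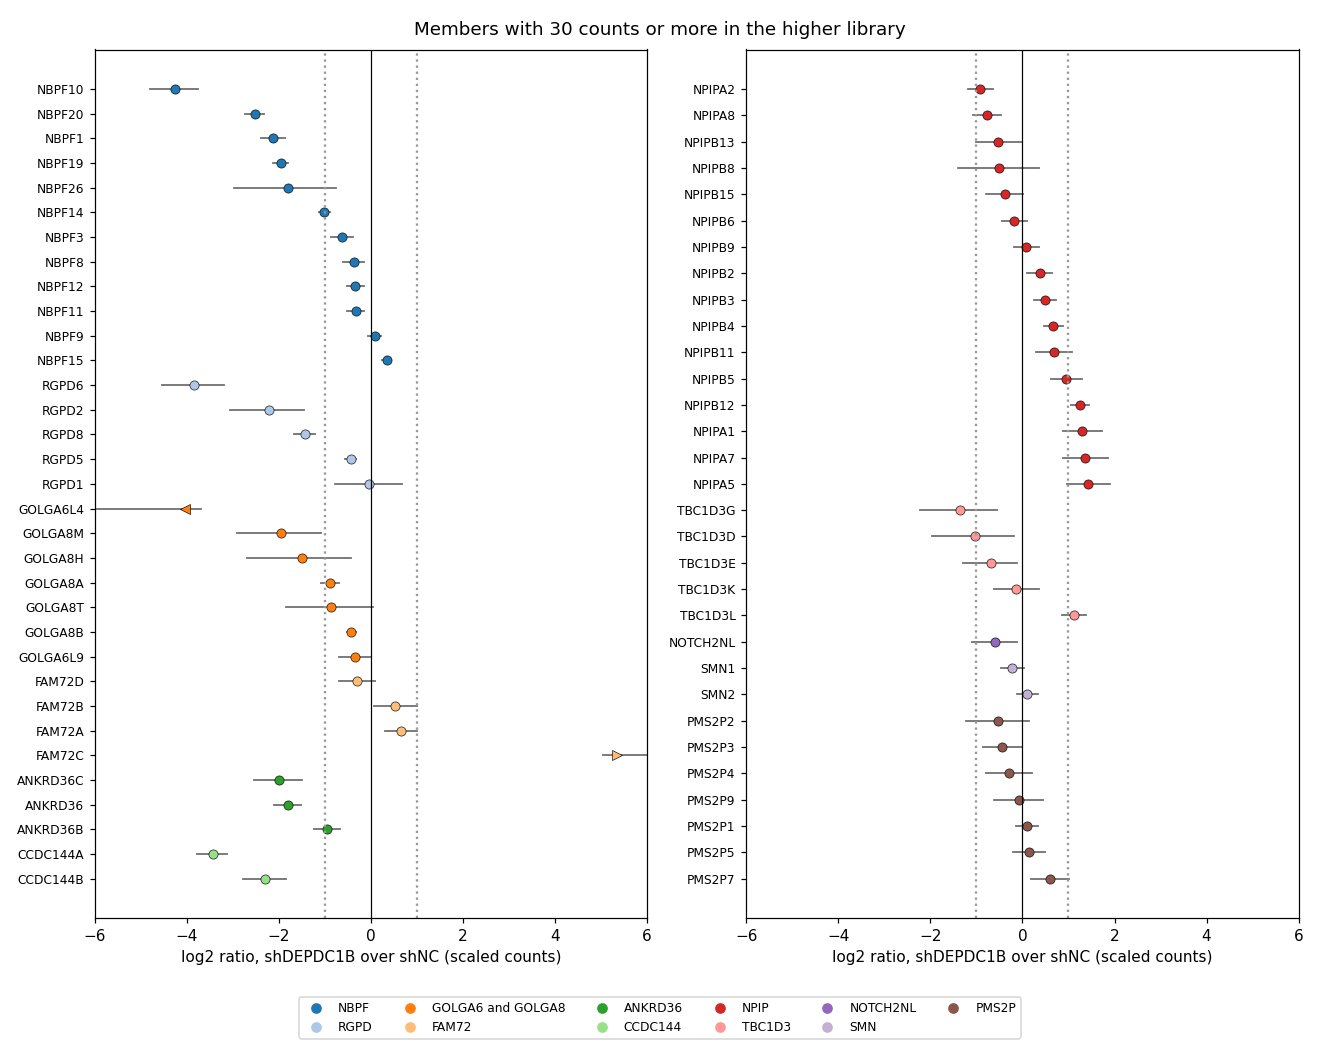
Log2 ratio of scaled counts, shDEPDC1B over shNC (x axis), for the 64 assessed members (y axis), coloured by family. Bars are exact 95% intervals of counting error, dotted lines mark 2-fold, and triangles mark bounds where 1 library had 0 counts. CCDC144A, RGPD6, GOLGA6L4 and NBPF10 lie far to the left, FAM72C far to the right, and most PMS2P and SMN intervals cross 0.

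The family sums keep reads that are exchanged between copies of the same family inside 1 value. Of the 11 sums, 6 had an interval below equality, 3 had one above it, and SMN and PMS2P had one that held it. At least 2-fold lower were ANKRD36 and CCDC144. None was 2-fold higher.

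**Figure D2:**
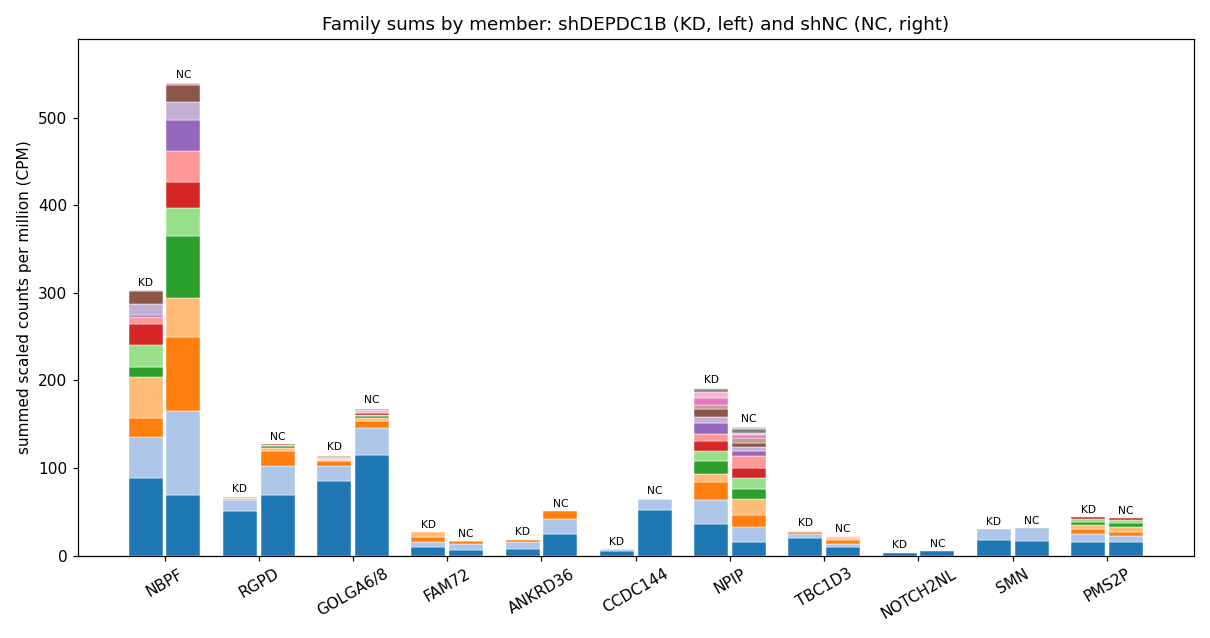
Summed CPM after scaling (y axis) of each family (x axis), shDEPDC1B (KD) at left and shNC (NC) at right, with a coloured block for each member in order of its counts. NBPF stood at 303 in shDEPDC1B and 540 in shNC, CCDC144 at 7.40 in shDEPDC1B and 65.0 in shNC, and NPIP at 192 in shDEPDC1B and 147 in shNC.

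The NBPF family lies on chromosome 1, and its proteins carry Olduvai repeats in numbers that differ between copies. Its 15 members summed to 5534 counts in shDEPDC1B and 10408 in shNC, a log2 ratio of -0.83 (-0.88 to -0.78). Of 12 assessed members 6 were lower and none was higher, and NBPF4, NBPF6 and NBPF7 had at most 2 counts in either library. NBPF10 (chr1:146064699-146144804, minus strand) had 34 counts in shDEPDC1B and 687 in shNC, 19.1-fold lower (log2 ratio -4.26, -4.80 to -3.76). NBPF20 had 226 counts in shDEPDC1B and 1379 in shNC, a log2 ratio of -2.53 (-2.74 to -2.33). NBPF19 had 398 counts in shDEPDC1B and 1635 in shNC, a log2 ratio of -1.96 (-2.12 to -1.80). These are long genes with many Olduvai repeats, and each was lower in shDEPDC1B. NBPF14 had 862 counts in shDEPDC1B and 1843 in shNC, a log2 ratio of -1.02 (-1.14 to -0.90). NBPF1, on the short arm of the chromosome, had 148 counts in shDEPDC1B and 684 in shNC, a log2 ratio of -2.13 (-2.40 to -1.87). NBPF26 had 10 counts in shDEPDC1B and 37 in shNC, a log2 ratio of -1.81 with a wide interval (-2.98 to -0.77).

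The other 6 assessed NBPF members differed less than 2-fold. NBPF15 had 1607 counts in shDEPDC1B and 1342 in shNC, a log2 ratio of 0.34 (0.23 to 0.45), the highest of the family. NBPF9 had 843 counts in shDEPDC1B and 844 in shNC, with a log2 ratio of 0.08 (-0.06 to 0.22). NBPF8 had 271 counts in shDEPDC1B and 372 in shNC, a log2 ratio of -0.38 (-0.61 to -0.15). NBPF11 had 460 in shDEPDC1B and 613 in shNC, a log2 ratio of -0.33 (-0.51 to -0.16). NBPF12 had 425 in shDEPDC1B and 568 in shNC, a log2 ratio of -0.34 (-0.52 to -0.16). These 3 lay close together, below equality and short of 2-fold. NBPF3 is the assessed member of this family with most sequence of its own, since 84.6% of its 50-base words occur in no other gene. It had 246 counts in shDEPDC1B and 401 in shNC, a log2 ratio of -0.63 (-0.86 to -0.39).

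Transcript length moved with the NBPF ratios. The 4 members whose representative transcript is longer than 10000 bases summed to 1520 counts in shDEPDC1B and 5544 in shNC, a log2 ratio of -1.79 (-1.87 to -1.71). The other 11 summed to 4014 in shDEPDC1B and 4864 in shNC, a log2 ratio of -0.20 (-0.26 to -0.14). Longer transcripts thus had the lower sum. Spearman's rho between ratio and length was -0.57 over the 12 assessed NBPF members, -0.53 over 63 assessed members of all families and -0.51 over 13013 assessed genes. These points share 2 libraries, so the values are descriptions. After a linear fit on length and GC content over all assessed genes NBPF14 was no longer 2-fold lower (-0.48), while NBPF10 stood at -3.64, NBPF20 at -1.77 and NBPF19 at -1.31. Not all lower members were long. NBPF1 (5932 bases) and NBPF26 (4602 bases) stood at -1.85 and -1.70 after the fit. The part of length in the NBPF result was not tested beyond that.

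**Figure D3:**
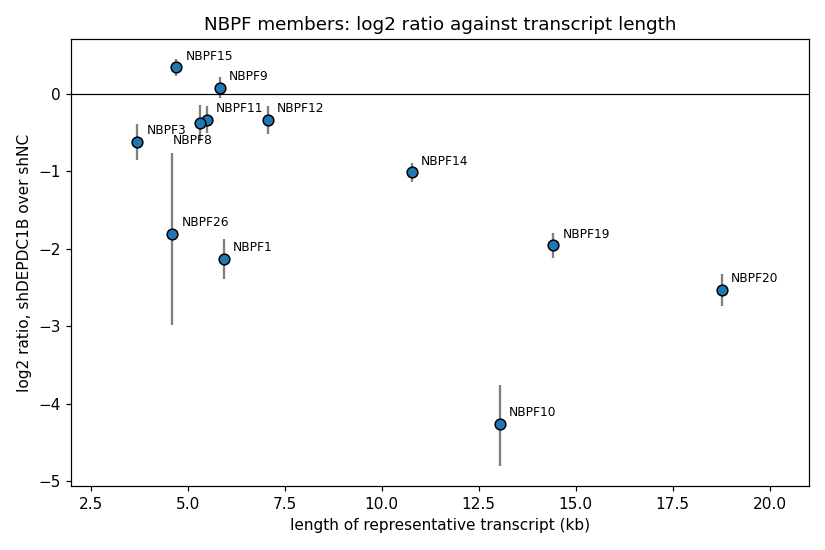
Log2 ratio, shDEPDC1B over shNC (y axis), of the 12 assessed NBPF members against the length of their representative GENCODE 29 transcript in kb (x axis), with bars for exact 95% intervals of counting error. NBPF14, NBPF10, NBPF19 and NBPF20 are the 4 longest, and NBPF15 and NBPF9 are the members above 0.

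Those 4 long members share most of their sequence with other genes. Of the 50-base words of NBPF10, 79.5% also occur in NBPF14. The pair NBPF10 and NBPF14 summed to 896 counts in shDEPDC1B and 2530 in shNC, a log2 ratio of -1.42 (-1.53 to -1.31), which does not depend on how reads were divided between the pair. NBPF8, NBPF9 and NBPF15, which differed less than 2-fold, have near-identical promoters. The promoters of NBPF9 and NBPF15 (250 bases before to 50 after the gene start, RefSeq, GRCh38.p14) align with 286 of 300 bases identical, and that of NBPF8 matches NBPF9 at 294. The promoters of NBPF9 and NBPF15 are shown as a close pair from copies that were both under 2-fold. The ratios of these genes still differed beyond counting error, with intervals of -0.06 to 0.22 for NBPF9 and 0.23 to 0.45 for NBPF15. The long members NBPF10, NBPF14 and NBPF19 match the promoters of NBPF8, NBPF9 and NBPF15 at 166 or fewer of 300 bases. NBPF11 and NBPF12, also under 2-fold, match the promoter of NBPF9 at 159 and 157, and each other at 259. NBPF1, which was lower, matches that of NBPF9 at 217. Whether likeness of promoter goes with the ratios was not tested. Capitals mark the 14 bases of each that have no identical partner in the other, for NBPF9 at chr1:149103502-149103801 and NBPF15 at chr1:144461620-144461919, both minus strand.

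NBPF9 promoter: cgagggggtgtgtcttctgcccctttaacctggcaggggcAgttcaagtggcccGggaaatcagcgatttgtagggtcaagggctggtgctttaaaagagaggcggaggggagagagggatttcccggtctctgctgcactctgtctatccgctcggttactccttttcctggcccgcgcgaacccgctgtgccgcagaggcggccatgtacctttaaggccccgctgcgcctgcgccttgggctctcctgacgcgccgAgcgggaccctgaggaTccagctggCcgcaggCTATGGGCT
NBPF15 promoter: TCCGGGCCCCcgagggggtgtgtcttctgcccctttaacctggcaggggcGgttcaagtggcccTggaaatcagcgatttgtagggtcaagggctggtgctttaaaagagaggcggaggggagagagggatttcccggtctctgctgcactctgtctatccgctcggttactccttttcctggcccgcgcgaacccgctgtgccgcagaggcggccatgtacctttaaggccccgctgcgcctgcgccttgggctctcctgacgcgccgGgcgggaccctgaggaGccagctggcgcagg

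RGPD genes on chromosome 2 are partial copies of RANBP2, a nuclear pore protein that binds Ran, joined to a golgin-type GRIP domain. The 7 members summed to 1225 counts in shDEPDC1B and 2452 in shNC, a log2 ratio of -0.92 (-1.02 to -0.82). Of 5 assessed members 3 were lower and none was higher. RGPD6 (chr2:110513812-110577185, minus strand) had 21 counts in shDEPDC1B and 317 in shNC, 14.3-fold lower (log2 ratio -3.84, -4.55 to -3.20). RGPD8 had 224 counts in shDEPDC1B and 643 in shNC, a log2 ratio of -1.44 (-1.67 to -1.22). RGPD2 had 17 counts in shDEPDC1B and 84 in shNC, a log2 ratio of -2.23 (-3.07 to -1.46). The copy that holds most of the counts differed less. RGPD5 had 931 counts in shDEPDC1B and 1335 in shNC, a log2 ratio of -0.44 (-0.56 to -0.32). RGPD1 had 32 in shDEPDC1B and 35 in shNC, with an interval from -0.79 to 0.68. RGPD3 and RGPD4 had 0 counts in shDEPDC1B and 21 and 17 in shNC, under the count minimum.

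RGPD5 and RGPD6 cannot be separated by sequence, since 100% of the 50-base words of each occur in the other. Their pooled counts were 952 in shDEPDC1B and 1652 in shNC, a log2 ratio of -0.72 (-0.83 to -0.60). The pair was thus below equality by less than 2-fold. RGPD8 is close to both, since 92.2% of its words occur in RGPD5 and 91.6% in RGPD6. RGPD5, RGPD6 and RGPD8 pooled to 1176 counts in shDEPDC1B and 2295 in shNC, a log2 ratio of -0.885 (-0.99 to -0.78), also less than 2-fold. How far the single values of RGPD6 (14.3-fold) and RGPD8 rest on the division of shared reads was not tested. RGPD1 and RGPD2, which share 96.8% of the words of RGPD1, pooled to 49 counts in shDEPDC1B and 119 in shNC, 2.30-fold lower (-1.71 to -0.71 in log2). RANBP2 itself, the parent gene, was lower, with 2273 counts in shDEPDC1B and 6096 in shNC (log2 ratio -1.34, -1.41 to -1.27). Among 12 genes of the RanBP2 and Ran pathway, all assessed, RANBP2 and the import receptor KPNB1 (-1.03) were lower and none was higher. The pathway's median was 0.35, and RAN and RANGAP1 had log2 ratios of 0.30 and 0.39.

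NPIP genes form the core of duplication blocks on chromosome 16 and are named for a nuclear pore association. Their function is little known. The 17 members summed to 3497 counts in shDEPDC1B and 2834 in shNC, a log2 ratio of 0.38 (0.31 to 0.46). Of 16 assessed members 4 were higher and none was lower, and NPIPA3 had 0 counts in shDEPDC1B and 9 in shNC. After the fit on length and GC content NPIPA1 (0.88) and NPIPB12 (0.95) were no longer 2-fold higher, and NPIPA2 (-1.37) and NPIPA8 (-1.12) were lower, which leaves 2 higher and 2 lower. NPIPB12 (chr16:29483642-29505999, minus strand) had 662 counts in shDEPDC1B and 294 in shNC, a log2 ratio of 1.25 (1.05 to 1.45). NPIPA5 had 143 in shDEPDC1B and 56 in shNC, a log2 ratio of 1.43 (0.98 to 1.91). NPIPA7 had 129 in shDEPDC1B and 53 in shNC, a log2 ratio of 1.36 (0.89 to 1.85). NPIPA1 had 158 in shDEPDC1B and 68 in shNC, a log2 ratio of 1.30 (0.88 to 1.73).

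The 2 subfamilies stood apart by more than counting error. The 6 NPIPA members summed to 747 counts in shDEPDC1B and 792 in shNC, with an interval from -0.15 to 0.14. The 11 NPIPB members summed to 2750 in shDEPDC1B and 2042 in shNC, a log2 ratio of 0.51 (0.43 to 0.59). Within NPIPA, the 3 higher members stood beside 2 with log2 ratios below 0. NPIPA2 had 175 in shDEPDC1B and 349 in shNC, a log2 ratio of -0.92 (-1.19 to -0.65), and NPIPA8 had 142 in shDEPDC1B and 257 in shNC, a log2 ratio of -0.78 (-1.08 to -0.48). NPIPA7 shares 90.1% of its words with NPIPA8, and that pair pooled to 271 in shDEPDC1B and 310 in shNC (-0.36 to 0.13). The higher value of NPIPA7 was thus not seen in the pair. Likewise NPIPB12 shares 98.8% of its words with NPIPB13, which had 60 in shDEPDC1B and 91 in shNC. That pair pooled to 722 in shDEPDC1B and 385 in shNC, a log2 ratio of 0.99 (0.81 to 1.17). None of the other NPIPB members reached 2-fold. NPIPB5 had 220 counts in shDEPDC1B and 120 in shNC, a log2 ratio of 0.95 (0.63 to 1.29). NPIPB4 had 501 in shDEPDC1B and 332 in shNC, a log2 ratio of 0.67 (0.47 to 0.88). NPIPB11 had 143 in shDEPDC1B and 94 in shNC, a log2 ratio of 0.69 (0.30 to 1.08). NPIPB3 and NPIPB2 also had intervals above equality. NPIPB3 had 369 in shDEPDC1B and 278 in shNC, a log2 ratio of 0.49 (0.26 to 0.72). NPIPB2 had 255 in shDEPDC1B and 208 in shNC, a log2 ratio of 0.37 (0.10 to 0.65). The intervals of the remaining 4 held equality. NPIPB9 had 218 in shDEPDC1B and 217 in shNC (0.09, -0.19 to 0.36). NPIPB6 had 210 in shDEPDC1B and 251 in shNC (-0.18, -0.45 to 0.09). NPIPB15 had 92 in shDEPDC1B and 127 in shNC (-0.39, -0.79 to 0.01), and NPIPB8 had 20 in shDEPDC1B and 30 in shNC (-0.51, -1.40 to 0.36). Deposited values of NPIPA5, NPIPA7, NPIPB4 and NPIPB5 were not whole hundredths, as a mean over several copies of a gene would be. Without members of that kind the family sum was 0.23, and with 4 read-through rows that end in an NPIP gene it was 0.24.

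NPIPA1 and NPIPA5, both higher, have stretches around the gene start in the RefSeq table that differ at 1 of 300 bases, marked by a capital (GRCh38.p14, chr16:14937193-14937492, plus strand, and chr16:15378245-15378544, minus strand). Both stretches lie inside the longer gene spans of GENCODE 29 (chr16:14922802-14952060 and chr16:15363624-15381047), which start elsewhere, so the 2 annotations do not give the same promoter. They are shown as the pair of RefSeq promoters closest to each other among 125 pairs of assessed members.

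NPIPA1 promoter: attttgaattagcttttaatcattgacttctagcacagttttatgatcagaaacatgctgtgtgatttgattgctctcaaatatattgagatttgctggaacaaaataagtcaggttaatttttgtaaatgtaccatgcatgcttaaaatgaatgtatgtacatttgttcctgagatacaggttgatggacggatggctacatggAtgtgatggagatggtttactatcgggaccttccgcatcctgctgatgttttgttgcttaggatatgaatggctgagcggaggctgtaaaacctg
NPIPA5 promoter: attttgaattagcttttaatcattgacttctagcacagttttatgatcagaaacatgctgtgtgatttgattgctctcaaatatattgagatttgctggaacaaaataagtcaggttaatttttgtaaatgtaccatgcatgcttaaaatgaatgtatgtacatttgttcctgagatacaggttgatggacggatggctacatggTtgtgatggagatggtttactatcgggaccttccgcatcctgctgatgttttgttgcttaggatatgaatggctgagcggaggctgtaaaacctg

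TBC1D3 genes, on chromosome 17, encode hominoid proteins with a TBC domain and are related to USP6 and USP32. In cultured human cells TBC1D3 has been linked to growth factor signalling. The 12 members summed to 532 counts in shDEPDC1B and 421 in shNC, a log2 ratio of 0.42 (0.23 to 0.61). Of 5 assessed members 1 was higher and 2 were lower. TBC1D3L had 376 counts in shDEPDC1B and 183 in shNC, a log2 ratio of 1.12 (0.86 to 1.38). TBC1D3G had 18 in shDEPDC1B and 49 in shNC, a log2 ratio of -1.37 (-2.23 to -0.56). TBC1D3D had 17 in shDEPDC1B and 37 in shNC, a log2 ratio of -1.04 (-1.96 to -0.18). The sum turned on 1 member, because without TBC1D3L the family had 156 counts in shDEPDC1B and 238 in shNC (-0.53, -0.83 to -0.23). After the fit on length and GC content TBC1D3L (0.82) was no longer 2-fold higher and TBC1D3E (-1.02) was lower. TBC1D3E had 41 in shDEPDC1B and 70 in shNC, a log2 ratio of -0.69 (-1.29 to -0.12). TBC1D3K had 69 in shDEPDC1B and 80 in shNC, a log2 ratio of -0.13 (-0.62 to 0.35). TBC1D3B, TBC1D3F and TBC1D3H were at 0 in both libraries, and the 4 others had at most 4 counts. Of the words of TBC1D3D 89.99% occur in TBC1D3L. Deposited values of TBC1D3E were not whole hundredths. The promoters of TBC1D3E and TBC1D3G match that of TBC1D3L at 294 and 287 of 300 bases, while their ratios had the opposite sign. USP32 was lower, with 1082 counts in shDEPDC1B and 2544 in shNC (-1.15). Of 19 other TBC genes that act on RAB GTPases TBC1D22A (1.04) was higher, and TBC1D5 (-1.01) and TBC1D16 (-1.37) were lower, with a median of 0.19.

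FAM72 genes lie beside the SRGAP2 genes on chromosome 1, and in mouse B cells Fam72a lowers the uracil glycosylase UNG2. The 4 members share most of their sequence, and their 450-base coding sequences differ at 6 positions in the GENCODE 29 transcripts on GRCh38. A pair of 30-base coding stretches is printed to show how few letters can tell FAM72C from the other copies. In the first, coding bases 1 to 30, the capital stands at position 6, where T6C relative to FAM72A groups FAM72C with FAM72D. It lies at chr1:206201996-206202025 for FAM72A, chr1:121183460-121183489 for FAM72B and chr1:143971112-143971141 for FAM72C, all on the minus strand, and at chr1:145096848-145096877 on the plus strand for FAM72D.

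FAM72A: atgtcTaccaacatttgtagtttcaaggac
FAM72B: atgtcTaccaacatttgtagtttcaaggac
FAM72C: atgtcCaccaacatttgtagtttcaaggac
FAM72D: atgtcCaccaacatttgtagtttcaaggac

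In the second, coding bases 230 to 259, which span an exon junction, the capital marks the change G245T. Of the 6 positions it is the one at which FAM72C differs from all other copies.

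FAM72A: gtgggaacattgtagGttatcatgtgattg
FAM72B: gtgggaacattgtagGttatcatgtgattg
FAM72C: gtgggaacattgtagTttatcatgtgattg
FAM72D: gtgggaacattgtagGttatcatgtgattg

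FAM72C (chr1:143955364-143971965, minus strand) had 116 counts in shDEPDC1B and 0 in shNC, at least 40.9-fold higher against a floor of 3 counts in the library at 0 (interval limit 32.7-fold). FAM72D, which holds 90.3% of the 50-base words of FAM72C, had 100 counts in shDEPDC1B and 131 in shNC, a log2 ratio of -0.31 (-0.70 to 0.08). Pooled, the pair had 216 in shDEPDC1B and 131 in shNC, a log2 ratio of 0.80 (0.48 to 1.13). The interval of FAM72D held equality and that of the pair did not. FAM72A had 184 in shDEPDC1B and 124 in shNC, a log2 ratio of 0.65 (0.31 to 0.99). FAM72B had 94 in shDEPDC1B and 69 in shNC, a log2 ratio of 0.53 (0.06 to 0.996). The family summed to 494 counts in shDEPDC1B and 324 in shNC, a log2 ratio of 0.69 (0.48 to 0.90), and to 378 in shDEPDC1B and 324 in shNC without FAM72C (0.30, 0.08 to 0.52). FAM72A overlaps SRGAP2, and FAM72B overlaps SRGAP2C, on the opposite strand. No source used here says whether counting used strand. SRGAP2 and SRGAP2C had log2 ratios of -0.53 and -0.12.

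CCDC144 genes on chromosome 17 encode coiled-coil proteins of little known function, related to ANKRD26. Their sum had the lowest ratio of the 11 families, with 135 counts in shDEPDC1B and 1254 in shNC, 8.79-fold lower (log2 ratio -3.14, -3.40 to -2.88). CCDC144A (chr17:16689537-16777881, plus strand) had 87 counts in shDEPDC1B and 998 in shNC, 10.9-fold lower (-3.44, -3.77 to -3.12). CCDC144B had 47 in shDEPDC1B and 244 in shNC, a log2 ratio of -2.30 (-2.78 to -1.84). Both assessed members were lower, and so was their sum, in which reads shared by the pair stay. Of the words of CCDC144A 65.8% occur in CCDC144B. A further gene, AC098850.3, holds 58.1% of them, overlaps CCDC144A on the same strand and has no row of its own here. The part of reads shared with AC098850.3 was not tested. CCDC144CP had 0 counts in shDEPDC1B and 11 in shNC, and CCDC144NL had 1 in each. Transcripts of the assessed members are 8686 and 8688 bases long, and after the fit on length and GC they stood at -2.80 and -1.66.

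ANKRD36 genes on chromosome 2 encode ankyrin repeat proteins, and their median share of 50-base words found in no other gene, 52.2%, is the highest of the families (47.8% to 59.6% over 3 members). They summed to 330 counts in shDEPDC1B and 972 in shNC, 2.79-fold lower (log2 ratio -1.48, -1.66 to -1.30). ANKRD36 had 128 counts in shDEPDC1B and 474 in shNC, a log2 ratio of -1.81 (-2.10 to -1.52). ANKRD36C had 39 in shDEPDC1B and 165 in shNC, a log2 ratio of -2.00 (-2.54 to -1.49). ANKRD36B had 163 in shDEPDC1B and 333 in shNC, a log2 ratio of -0.95 (-1.23 to -0.68), just short of 2-fold, which it passed with library totals (-1.05). The pseudogene ANKRD36BP1, which the symbol pattern leaves out, had 18 in shDEPDC1B and 250 in shNC (-3.72). ANKRD26, the related single-copy gene, was lower too, with 312 in shDEPDC1B and 757 in shNC (-1.20, -1.39 to -1.01).

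GOLGA6 and GOLGA8 genes on chromosome 15 are copies derived from GOLGA2, which encodes the Golgi matrix protein GM130. Of their 32 members 13 had no count in either library and 7 were assessed. The family summed to 2103 counts in shDEPDC1B and 3257 in shNC, a log2 ratio of -0.55 (-0.63 to -0.47). Most of these counts came from a pair of copies. GOLGA8B had 1550 counts in shDEPDC1B and 2208 in shNC, a log2 ratio of -0.43 (-0.53 to -0.34). GOLGA8A had 306 in shDEPDC1B and 601 in shNC, a log2 ratio of -0.89 (-1.10 to -0.69). Neither reached 2-fold, and the 3 members that did had few counts. GOLGA6L4 had 0 counts in shDEPDC1B and 52 in shNC, at least 16.4-fold lower against the floor (interval limit -3.69 in log2). GOLGA8M had 14 in shDEPDC1B and 57 in shNC, a log2 ratio of -1.95 (-2.90 to -1.08). GOLGA8H had 10 in shDEPDC1B and 30 in shNC, a log2 ratio of -1.51 (-2.70 to -0.43). Deposited values of GOLGA6L9, GOLGA8H, GOLGA8M and GOLGA8T were not whole hundredths.

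The counts of GOLGA6L4 were part of a group of like copies. With GOLGA6L5P, GOLGA6L9 and GOLGA6L10, a group formed after the values were seen, it summed to 222 in shDEPDC1B and 475 in shNC, 2.02-fold lower (-1.25 to -0.79 in log2). GOLGA6L9 had 117 in shDEPDC1B and 157 in shNC (-0.34), and GOLGA8T had 16 in shDEPDC1B and 31 in shNC, with an interval from -1.84 to 0.04. GOLGA8T was lower after the fit on length and GC content (-1.17). The promoters of GOLGA8H, GOLGA8M and GOLGA8T match one another at 288 to 296 of 300 bases, and their ratios ran from -1.95 to -0.87. The 12 members with counts below the minimum had at most 24. GOLGA2 had 1476 counts in shDEPDC1B and 1407 in shNC (0.15, 0.04 to 0.26). Of 14 golgins and related genes, all assessed, GOLGA4 (-1.03), GOLGB1 (-1.12) and GCC2 (-1.34) were lower and none was higher. The median of the 14 was -0.37.

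NOTCH2NL genes encode short secreted versions of NOTCH2. The table has 1 row for them, under an older symbol that RefSeq lists for several copies, so its counts may belong to any of these. It had 59 counts in shDEPDC1B and 95 in shNC, a log2 ratio of -0.61 (-1.10 to -0.12), less than 2-fold. NOTCH2 was lower, with 775 in shDEPDC1B and 2680 in shNC (-1.71, -1.83 to -1.59). It holds 68.5% of the 50-base words of NOTCH2NLA, a NOTCH2NL copy, so short reads can match both. The part of shared reads in the NOTCH2NL and NOTCH2 values was not tested. Of 24 Notch pathway genes 19 were assessed, and NOTCH1 (-1.39), NOTCH2, JAG1 (-1.34) and MAML3 (-1.12) were lower and none was higher. The median of the 19 was -0.325, against 0.04 over all assessed genes. The target gene HES1 had a log2 ratio of 0.36.

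SMN1 and SMN2 on chromosome 5 encode the same SMN protein, and SMN2 transcripts mostly skip an exon. The pair summed to 550 counts in shDEPDC1B and 598 in shNC, a log2 ratio of -0.04 (-0.21 to 0.13). SMN1 had 232 in shDEPDC1B and 285 in shNC (-0.22, -0.47 to 0.04), and SMN2 had 318 in shDEPDC1B and 313 in shNC (0.10, -0.13 to 0.33). No difference was detectable at this depth for either copy. All 3 intervals lie within 2-fold of equality. Since 93.3% of the 50-base words of each copy occur in the other, the values of SMN1 and SMN2 are not separate measurements. The deposited values of SMN1 were not whole hundredths either. Of 16 partners of SMN, 1 was higher, GEMIN7 with 912 in shDEPDC1B and 477 in shNC (1.02, 0.85 to 1.18), and none was lower. The median of the 16 was 0.40, against 0.04 over all assessed genes. The median transcript of the 16 was 1722.5 bases, and the part of length was not tested. Next to SMN1, the copy SERF1A had 73 counts in shDEPDC1B and 0 in shNC, at least 25.7-fold higher against the floor. Its twin SERF1B, next to SMN2, had 331 in shDEPDC1B and 366 in shNC, and the pair pooled to 404 in shDEPDC1B and 366 in shNC (0.22, 0.02 to 0.43). Deposited values of both SERF1 copies were not whole hundredths. The part of read division in the 0 counts of SERF1A and FAM72C was not tested.

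PMS2P genes on chromosome 7 are pseudogenes of the mismatch repair gene PMS2. All 7 were assessed and none was called, although PMS2P2 was lower after the fit on length and GC content (-1.08). They summed to 797 counts in shDEPDC1B and 828 in shNC, a log2 ratio of 0.03 (-0.12 to 0.17). The members ran from -0.54 for PMS2P2 (32 counts in shDEPDC1B and 49 in shNC) to 0.60 for PMS2P7 (123 in shDEPDC1B and 86 in shNC). PMS2P1 holds the most counts, with 292 in shDEPDC1B and 289 in shNC (0.10, -0.15 to 0.33). PMS2P5 had 149 in shDEPDC1B and 143 in shNC (0.14, -0.20 to 0.48). PMS2P9, PMS2P4 and PMS2P3 had ratios below 1. PMS2P9 had 58 in shDEPDC1B and 65 in shNC (-0.09, -0.62 to 0.45). PMS2P4 had 62 in shDEPDC1B and 80 in shNC (-0.29, -0.79 to 0.21). PMS2P3 had 81 in shDEPDC1B and 116 in shNC, with an interval just below equality (-0.44, -0.87 to -0.02). PMS2 had 678 in shDEPDC1B and 1178 in shNC (-0.72, -0.86 to -0.58). None of 9 mismatch repair genes was higher or lower by the same rule, and their median was -0.26. Several of these pseudogenes overlap STAG3L or SPDYE genes on the opposite strand.

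The division of counts between copies differed between the libraries in several families. The share of a family's counts that would have to move between members to turn one library's division into the other's was 29.9% in NBPF, 29.1% in TBC1D3, 23.5% in FAM72, 22.7% in RGPD and 20.8% in NPIP. It was 16.0% in CCDC144, 15.1% in ANKRD36, 8.21% in PMS2P, 7.98% in GOLGA6 and GOLGA8 and 5.48% in SMN. RGPD5 held 76.0% of the RGPD counts in shDEPDC1B (95% interval 73.5% to 78.4%) and 54.4% in shNC (52.4% to 56.4%). TBC1D3L held 70.7% of the TBC1D3 counts in shDEPDC1B (66.6% to 74.5%) and 43.5% in shNC (38.7% to 48.4%). NBPF15 held 29.04% of the NBPF counts in shDEPDC1B (27.8% to 30.3%) and 12.9% in shNC (12.3% to 13.6%). CCDC144A, the leading copy of CCDC144, had the larger share in shNC. It held 64.4% of the CCDC144 counts in shDEPDC1B (55.8% to 72.5%) and 79.6% in shNC (77.2% to 81.8%). The shares of FAM72A had overlapping intervals, with 37.2% of the FAM72 counts in shDEPDC1B (32.97% to 41.7%) and 38.3% in shNC (32.95% to 43.8%). FAM72D held 20.2% of the FAM72 counts in shDEPDC1B (16.8% to 24.1%) and 40.4% in shNC (35.0% to 46.0%). Shares are of counts, and longer transcripts give more reads per molecule.

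**Figure D4:**
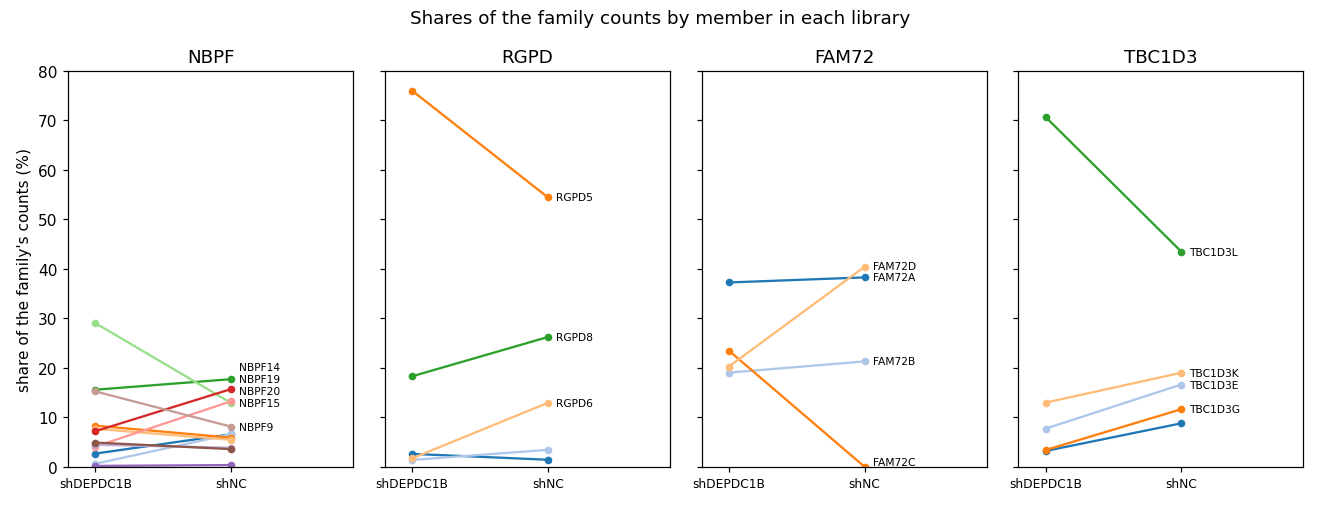
Share of the family's counts in percent (y axis) held by each assessed member in shDEPDC1B (left) and shNC (right) for NBPF, RGPD, FAM72 and TBC1D3. RGPD5, TBC1D3L and NBPF15 held more of their family in shDEPDC1B, and FAM72C held 23.5% in shDEPDC1B and none in shNC.

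Most assessed members share most of their sequence with other genes. The median member had 10.3% of its 50-base words in no other gene, against 100% over all assessed genes. Under 50% was found in 56 of 63 assessed members with an annotated transcript, and under 10% in 31. Outside the families 599 assessed genes were also under 50%. Of these 14.2% were higher and 8.68% lower, with a median log2 ratio of 0.24 and a standard deviation of 1.16. The 1690 outside genes with 50% to under 95% had 5.09% higher and 6.27% lower, with a standard deviation of 0.69. Among the 10661 assessed genes with 95% or more words of their own, 4.92% were higher and 8.67% lower, with a median of 0.02 and a standard deviation of 0.71. The 56 members under 50% had 6 higher and 16 lower, with a median of -0.36 and a standard deviation of 1.55. The wider spread outside the families was thus seen under 50% and not between 50% and 95%. The part of shared reads in the members' single ratios was not tested. Sums over a family or pair keep the reads exchanged among its members, but not those exchanged with genes outside, such as PKD1P1, which holds 78.6% of the words of NPIPA1. NBPF19 holds 80.5% of the words of NOTCH2NLA, a NOTCH2NL copy, so the NBPF and NOTCH2NL sums are not closed to each other. NOTCH2 holds 68.5% of the words of NOTCH2NLA, so the NOTCH2NL sum is not closed to NOTCH2 either.

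**Figure D5:**
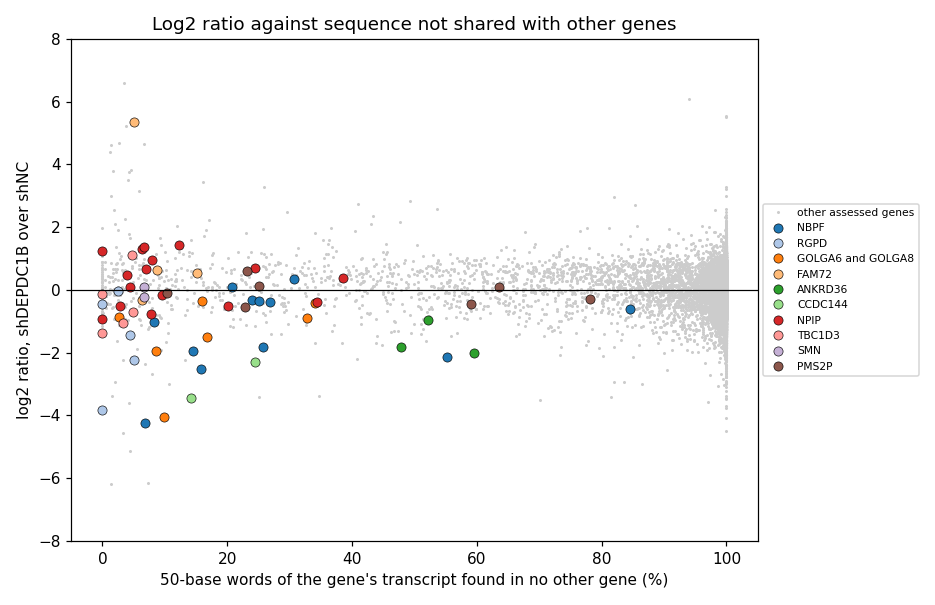
Log2 ratio, shDEPDC1B over shNC (y axis), against the percent of a transcript's 50-base words found in no other gene (x axis), for assessed members (coloured by family) and 12950 other assessed genes (grey). Members crowd at the left, where grey points also spread far from 0, and none lies above 90%.

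A list of genes beside the duplicated families, drawn up with these results known, held 30 genes. Of 24 assessed, SERF1A was higher, and SMG1 (-1.81), POM121C (-1.30) and GTF2I (-1.02) were lower, with a median of -0.16. SMG1, a kinase of nonsense-mediated decay whose pseudogenes lie among NPIP genes, had 1359 counts in shDEPDC1B and 5029 in shNC. NPIPB3 and NPIPB5 overlap the pseudogenes SMG1P3 and SMG1P1 on the same strand. SMG1P3 had 89 counts in shDEPDC1B and 146 in shNC, and SMG1P1 had 18 in shDEPDC1B and 146 in shNC. Of 8 assessed genes from which the families derive or to which they are related, RANBP2, NOTCH2, USP32 and ANKRD26 were lower and none was higher, with a median of -0.94. Their transcripts have a median of 7825.5 bases, against 3405 over all assessed genes. PDE4DIP, which like NBPF genes carries an Olduvai repeat, had 332 in shDEPDC1B and 348 in shNC (0.01, -0.21 to 0.23). PKD1, part of which was copied along with NPIP, had 1638 in shDEPDC1B and 1661 in shNC (0.06, -0.04 to 0.16).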

How the data were processed

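RNA of A549 cells was sequenced as 1 library for each of 2 groups, shDEPDC1B and shNC, taken from the treatment label. Per the submitters' processing notes, reads were mapped to hg38 with Bowtie2 and counted with RSEM. No source used here gives versions, annotation or strand use. The table deposited by the authors holds an estimated count per gene symbol and library from RSEM, without scaling for depth, and each estimated count was rounded here to a whole number. RSEM divides reads that match several genes by a model. For 699 genes, 19 of them members, deposited values were not whole hundredths (tolerance 0.001 hundredths), as a mean over gene copies would be, and 10 of these members were assessed.

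Libraries were scaled with TMM factors (edgeR 4.0.16 in R 4.3.3), and each ratio has an exact 95% interval by the Clopper-Pearson method (SciPy 1.17.1), from the share of its counts that came from shDEPDC1B. Without molecular identifiers, reads from PCR copies are not independent, and intervals and floors cover counting error alone. Where 1 library had no count, 3 counts were put in its place and the ratio is a bound. Assessed genes had 30 counts or more in the higher library, and calls needed a 2-fold ratio and an interval without equality. With 1 library per group no test was run. Words of 50 bases and lengths come from GENCODE 29 transcripts on GRCh38 (same strand; the longest protein-coding transcript, or the longest where none is coding), where 102 of 104 members matched. NOTCH2NL and GOLGA6L19 did not. Promoters are from RefSeq, where 67 of 104 members matched. Counts and ratios are given for members with 30 counts or more in the higher library, and of each gene list for all called genes and up to 3 others in list order. SFTPC, NKX2-1, SERF1B, HES1, PDE4DIP, PKD1, PKD1P1, CD14, ANKRD36BP1, GOLGA6L5P, SMG1P1 and SMG1P3 were named after their values were seen.

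Alternatives were DESeq2 1.42.0 size factors, library totals, upper-quartile factors, other count and fold thresholds, leaving out values like a mean over copies, adding other rows of a family, leaving out the member with most counts, a linear fit on length and GC, counts not rounded, and a prior count of 2. Members and lists were chosen with earlier results of these data known. On simulated Poisson counts at these depths (13614 genes), 100% of 100 genes set 2.5-fold higher and 100% of 100 set lower were called, with 24 calls among the unchanged genes. The changed genes were drawn from those with an expected 100 counts or more in shDEPDC1B before the change, so genes with fewer counts were not tried. Poisson counts hold counting error alone, so the run checks the call rule and says nothing about the spread between cultures.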

Additional observations from a re-analysis of the deposited data

How the results depend on the processing

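No paired analysis was possible because each group is 1 library with no replicate. No value at 2-fold or more with an interval that left out equality, whether a member or a family sum, changed sign under the alternatives run. With DESeq2 size factors the NBPF sum was -0.88 (log2, shDEPDC1B over shNC), and with library totals NBPF was -0.93, GOLGA6 and GOLGA8 -0.65 and NPIP 0.29. Without the member with most counts NBPF was -1.13, RGPD -1.85, GOLGA6 and GOLGA8 -0.84, ANKRD36 -1.22, CCDC144 -2.34, NPIP 0.24, SMN -0.22, and TBC1D3 took the opposite sign at -0.53. Without members that look like a mean over copies NPIP was 0.23. With read-through rows, an alternative chosen after seeing the data, NPIP was 0.24. With its pseudogene rows ANKRD36 was -1.73. At 100 counts or more 11 members were lower, where fewer members are assessed, and at 1.5-fold 11 were higher. After the fit on length and GC 3 were higher and 22 lower, because NBPF14, NPIPA1, NPIPB12 and TBC1D3L fell short of 2-fold and GOLGA8T, NPIPA2, NPIPA8, PMS2P2 and TBC1D3E reached it as lower. ANKRD36B was lower with DESeq2 size factors (-1.003) and library totals (-1.05), and NPIPA2 with library totals (-1.01). Other scalings gave 6 higher and 18 to 20 lower. Of 383 member values under other settings 32 moved beyond counting error, 31 of them under the fit. Some uncalled values changed sign there, such as RGPD5 (0.09) and NPIPB3 (-0.04), and the SMN and PMS2P sums, whose intervals held equality, ran from -0.22 to 0.10 and from -0.07 to 0.03. Depth limits the 24 members with at most 24 counts, for which no ratio is given.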
